A study of Rattus norvegicus with 4 samples.

Results

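The microRNAs rno-miR-26a, rno-miR-26b, rno-miR-101a and rno-miR-101b, called miR-26a, miR-26b, miR-101a and miR-101b below, were followed across 4 arrays of rat prostate. They were taken as the probes with exactly these names, without the names ending in an asterisk that mark the other arm of a precursor. All 4 probes were found, of 679 miRNA probes on each array, and each had 1 spot. RNA came from male TRAP rats, a transgenic line known to develop prostate cancer from a viral T antigen driven by the probasin promoter, which is active in prostate epithelium. Both the treated rats and the controls carried the transgene and ate a control diet. Rats received either OBP-801, which inhibits histone deacetylases, or saline, injected intravenously 2 times a week for 8 weeks from an age of 6 weeks. The dose is given as 1 mg/kg in the treatment protocol and as 1 mg, without a body weight, in the label of the agent. The arrays were ventral prostate after OBP-801, ventral prostate after saline, lateral prostate after OBP-801 and lateral prostate after saline, with 1 array each. There was no replicate, the number of rats behind an array is not given in the labels, and differences between single arrays therefore carry no p-value.

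A microRNA is a short RNA that guides a silencing complex to messenger RNAs, mainly by pairing of its seed, the bases 2 to 8 counted from its 5′ end. The miR-26 and miR-101 families are both known as repressors of EZH2, the catalytic subunit of the Polycomb repressive complex, which places a silencing methyl mark on histones. EZH2 is often abundant in advanced human prostate cancer, and loss of miR-101 has been described there. No messenger RNA or protein was measured here, so nothing is reported on EZH2 itself.

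The mature sequences are shown because the likeness within each family bears on how far the probes can tell its members apart. They are RefSeq entries on the rat build GRCr8, all 4 probes had a match, and the seed is in capitals.
miR-26a: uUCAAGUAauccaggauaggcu
miR-26b: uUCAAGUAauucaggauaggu
miR-101a: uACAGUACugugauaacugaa
miR-101b: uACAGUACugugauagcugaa
The unstarred array names were read as the 5p arm for miR-26 and the 3p arm for miR-101. Counted from 1 at the 5′ end, miR-26b differs from miR-26a by C11U and C21U and is 1 base shorter, with 21 bases against 22. miR-101b differs from miR-101a by A16G alone. Members of a family therefore share a seed and nearly the whole of their length, and how much of one member a probe for the other captures was not tested. Of 724 mature rat sequences in the RefSeq table, 2 hold the miR-26 seed and 2 the miR-101 seed, which are these members. At bases 2 to 7 the miR-101 stretch is held by 3 sequences, the third being miR-144-3p, an erythroid miRNA that lies on chr10:63459446-63459465, plus strand, shown with that stretch in capitals.
miR-144-3p: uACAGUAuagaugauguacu
The probe for miR-144 was not detected in any of the 4 arrays, with spot signals of 91.1 in ventral OBP-801, 113 in ventral saline, 116 in lateral OBP-801 and 108 in lateral saline.

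The 4 miRNAs come from separate genes. On GRCr8 the mature miR-26a lies at chr8:127633063-127633084 on the plus strand, within the span of Ctdspl, and miR-26b at chr9:83425723-83425743 on the plus strand, within the span of Ctdsp1. Both host genes encode small phosphatases of the CTD family, and the miR-26 precursors are known to be intronic. miR-101a lies at chr5:121081691-121081711 on the minus strand, within the span of the long non-coding gene LOC120102934. miR-101b lies at chr1:236273982-236274002 on the plus strand, within Rcl1, a gene for an RNA processing protein. The table held 1 precursor for each.

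Signal is given as the median of a spot at 635 nm, in scanner units, and a probe counted as detected above the mean plus 2 SD of the blank spots of its array. That limit was 116 in ventral OBP-801, 124 in ventral saline, 129 in lateral OBP-801 and 125 in lateral saline. Between 290 and 329 probes per array passed it, and 242 passed it on all 4. All 11 epithelial marker miRNAs that were looked up, such as miR-200b and miR-205, were detected on every array, and the liver marker miR-122 on none. The scanner files give cell number 2 for both OBP-801 arrays and cell number 1 for both saline arrays, so cell and agent cannot be told apart. The scan names carry 1 code for both ventral arrays and another for both lateral arrays, and what that code stands for is not given. Within an array, log2 signals of the first spike control, over its 8 spots, had SDs between 0.036 and 0.20. Those of the second spike control had SDs between 0.063 and 0.11. Both are spreads between spots and not between rats.

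miR-26a gave the brightest signal of the 4 probes. The signal of rno-miR-26a was 6198 in ventral OBP-801, 10374 in lateral OBP-801 and 8497 in lateral saline. The spot on the ventral saline array was marked as faulty at all 3 scanner gains, with a recorded 2479, and it is the single faulty spot of the 4 arrays. It was set to missing, so that no ventral drug difference and no saline lobe difference exist for miR-26a. Among all 679 probes the signal had rank 7 in ventral OBP-801, 7 in lateral OBP-801 and 5 in lateral saline. On all 3 arrays it was more than 50 times the detection limit, from 53.2 to 80.4 times.

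The signal of rno-miR-26b was 1029 in ventral OBP-801 and 1355 in ventral saline, and 1604 in lateral OBP-801 and 1641 in lateral saline. It was lowest in ventral OBP-801 and nearly equal on both lateral arrays, and it stood 8.84 to 13.2 times above the limit. The miR-101 probes were dim. The signal of rno-miR-101a was 132 in ventral OBP-801 and 174 in ventral saline, and 188 in lateral OBP-801 and 178 in lateral saline. The signal of rno-miR-101b was 163 in ventral OBP-801 and 187 in ventral saline, and 212 in lateral OBP-801 and 196 in lateral saline. In spot signal both were lowest in ventral OBP-801 and highest in lateral OBP-801. The mean of the blank spots was also lowest in ventral OBP-801, at 100.1, and highest in lateral OBP-801, at 109.4. After the quantile normalization described below, both were highest in ventral saline. The miR-101 probes passed the detection limit on every array, but by as little as 1.14 times for miR-101a in ventral OBP-801 and by no more than 1.64 times for miR-101b in lateral OBP-801. Brightness depends on the probe as well as on the RNA, so these signals give no order of abundance between the miRNAs.

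**Figure D1:**
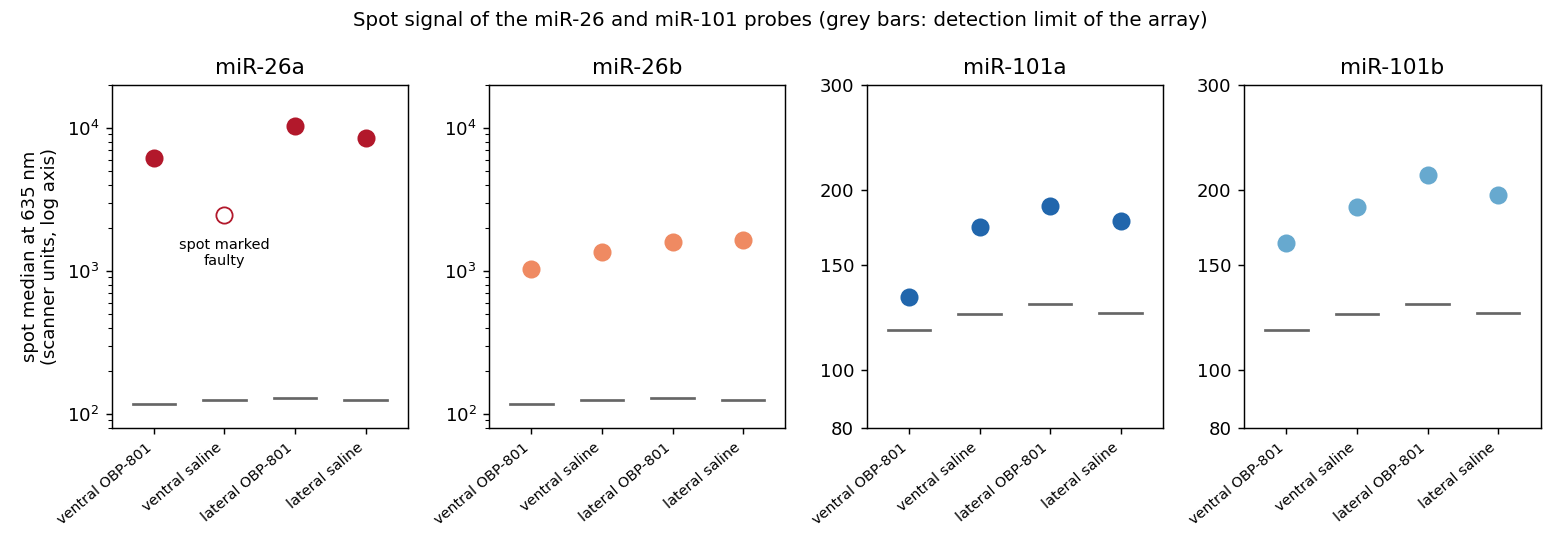
Spot signal at 635 nm in scanner units on a log axis, 1 point per array, for miR-26a, miR-26b, miR-101a and miR-101b; the axis of the miR-101 plots covers a narrower range. Grey bars mark the detection limit of each array, between 116 and 129; the open circle is the miR-26a spot marked as faulty, at 2479.

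For comparisons between arrays, signals were background-corrected, put on the log2 scale and quantile-normalized, a step that gives probes of equal rank on 2 arrays the same value. An offset of 50 in the correction understates the differences of dim probes such as those for miR-101.

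In the ventral prostate, the question was whether OBP-801 changed these miRNAs relative to saline. All 3 members with a value were lower after OBP-801. miR-26b had a normalized log2 level of 10.28 after OBP-801 and 10.74 after saline, a difference of -0.46 or 1.38-fold. miR-101a had a log2 level of 6.78 after OBP-801 and 7.23 after saline, a difference of -0.45 or 1.37-fold. miR-101b had a log2 level of 7.16 after OBP-801 and 7.37 after saline, a difference of -0.21 or 1.16-fold. The differences of all 260 probes detected on both arrays had a spread of 0.26, an SD estimated from their median absolute deviation. miR-26b and miR-101a lay 1.80 and 1.76 such spreads from 0, and miR-101b lay within 1 spread, at 0.82.

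Read against all probes, these differences were on the low side without being extreme. miR-26b ranked 19 from the lowest, miR-101a 21 and miR-101b 58 of 260. At least 1.2-fold lower were 2 of the 3 members, against 18.1% of all probes tested, and 0 of 3 were at least 1.5-fold lower, against 3.85%. The median over the 3 members was -0.45, beside -0.02 over all probes, and 52.7% of all probes were below 0. The dim miR-101a carries the most doubt about its size, since its signal in ventral OBP-801 was 132 against a blank level of 100.1. With the mean of the blank spots subtracted instead, its difference was -1.05, beside a median of -0.03 over all probes. In the authors' deposited value table it was -1.51, beside a median of -0.47 over all probes.

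In the lateral prostate, all 4 members were below saline after quantile normalization, but for miR-26a this rested on the normalization. miR-26a had a normalized log2 level of 12.83 after OBP-801 and 13.21 after saline, a difference of -0.39 or 1.31-fold, although its spot signal was higher after OBP-801. The array of lateral OBP-801 was brighter as a whole. Without normalization the median over all probes was 0.19 higher than in lateral saline, and miR-26a was 0.29 higher, which is 0.10 above that median. The difference was 0.011 under median centring, 0.23 with scaling on spike controls, 0.11 in the deposited value table and -0.035 under cyclic loess. No direction is given for miR-26a in the lateral prostate.

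miR-26b was the member whose lateral difference was below 0 under every processing tried. Its normalized log2 level was 10.28 after OBP-801 and 10.60 after saline, a difference of -0.32 or 1.25-fold, and it ranked 28 from the lowest of 271 probes. Without normalization it was -0.04, or -0.23 relative to the median of all probes. miR-101a had a log2 level of 7.07 after OBP-801 and 7.18 after saline, a difference of -0.11. miR-101b had a log2 level of 7.29 after OBP-801 and 7.36 after saline, a difference of -0.06. The miR-101 differences lay within the spread of 0.23 over all 271 probes. Both were above 0 without normalization, at 0.06 for miR-101a and 0.13 for miR-101b. At least 1.2-fold lower were 2 of the 4 members, both of the miR-26 family, against 15.1% of all probes. This count includes miR-26a, and under median centring miR-26b alone passed, against 24.4% of all probes. Without normalization 0 of the 4 were 1.2-fold lower, against 5.54%, and 37.3% of all probes were 1.2-fold higher, against 12.9% after quantile normalization. The lateral difference of miR-26b was -0.22 in the deposited value table, -0.13 with print block medians removed and -0.10 with scaling on spike controls, so it was no longer 1.2-fold lower under these. The medians over all probes there were, in the same order, 0.15, -0.004 and 0.13. At 1.5-fold there were 0 of 4 in the main processing, against 2.58%. The median over the 4 members was -0.22, beside 0.00 over all probes, of which 48.7% were below 0.

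**Figure D2:**
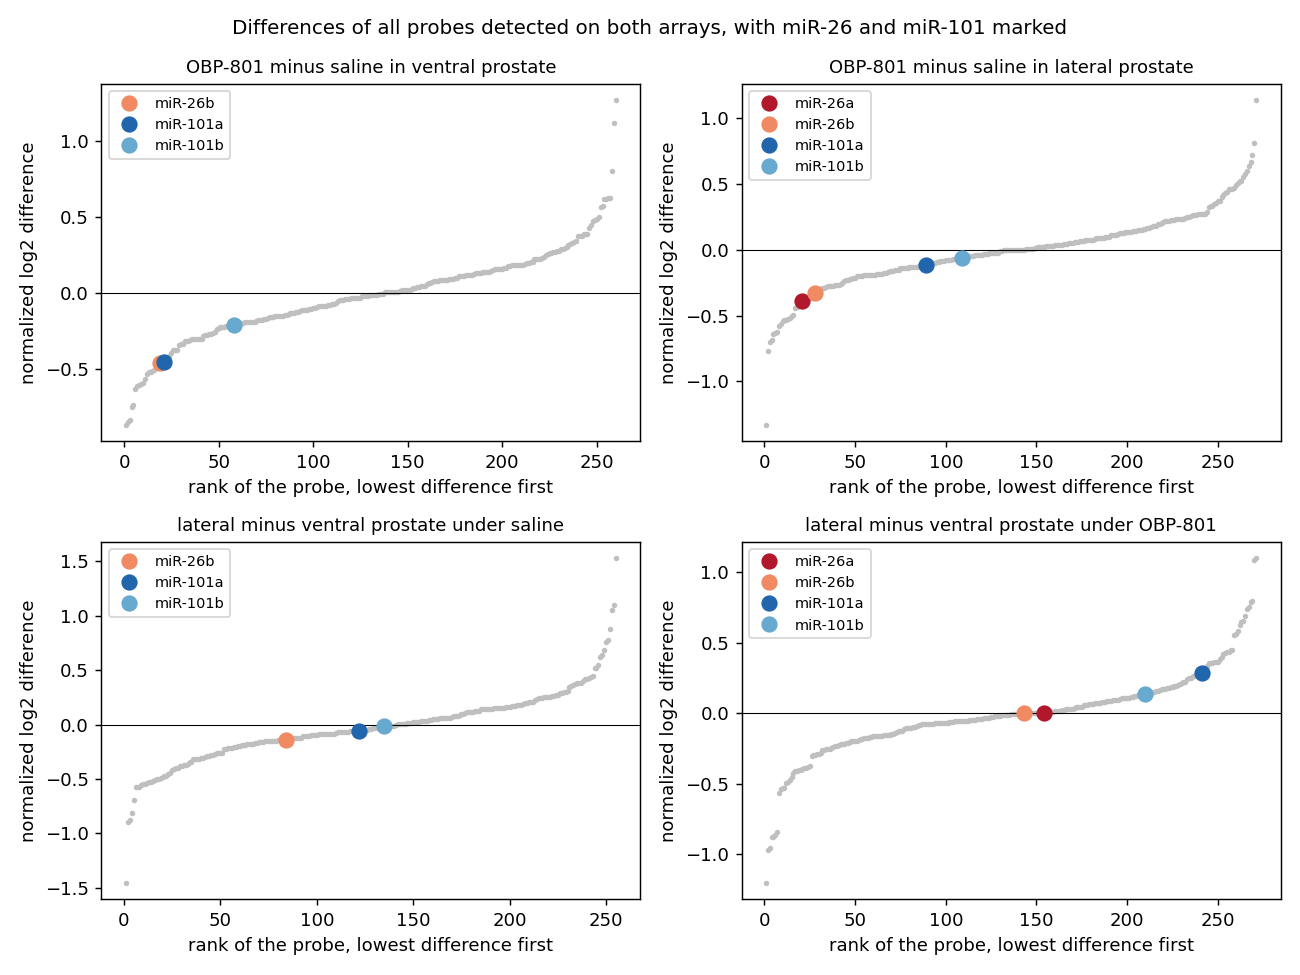
Normalized log2 difference of every probe detected on both arrays (grey), in order from the lowest, with miR-26 and miR-101 in colour, for the 2 drug and the 2 lobe comparisons. In ventral prostate miR-26b and miR-101a sit at -0.46 and -0.45 near the low end, and under OBP-801 both miR-26 probes sit at 0 between the lobes.

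The ratio of 2 probes on the same array does not change with a constant scaling of that array, so it was used to ask whether family members moved alike. In the lateral prostate the log2 ratio of miR-26a over miR-26b was 0.33 higher after OBP-801 than after saline without normalization between arrays. It was 0.32 higher from uncorrected signals and 0.33 higher with the blank level subtracted. Each of these values comes from 1 spot. The log2 signals of the first spike control had SDs of 0.16 in lateral OBP-801 and 0.20 in lateral saline. Those of the second spike control had smaller SDs, 0.076 in lateral OBP-801 and 0.063 in lateral saline. Whether this change of ratio exceeds the spread between spots was not tested. After quantile normalization, which is not a constant scaling, the change was -0.06. The log2 ratio of miR-101a over miR-101b changed by -0.25 after OBP-801 in ventral prostate and by -0.07 in lateral prostate. With the blank level subtracted the ventral change was -0.72, so its size depends on the background correction.

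The lobes were next compared for the drug difference itself. The lateral difference minus the ventral one was 0.14 for miR-26b, 0.34 for miR-101a and 0.15 for miR-101b, where the spread of this quantity over the 242 probes detected on all arrays was 0.25. After quantile normalization it was positive for all 3, so each lay further below saline in the ventral lobe. It exceeded the spread for miR-101a. With median centring the ventral and lateral differences were -0.33 and -0.32 for miR-26b, and -0.39 and -0.22 for miR-101a. They were -0.14 and -0.15 for miR-101b, so the order of its lobes turned. How many of the 242 probes had a positive value was not counted. With 1 array per group this lobe difference cannot be tested.

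Both lobes entered an additive fit with lobe and agent as terms (limma), which has 1 residual degree of freedom and covers the 242 probes. The lobes are the only repeats of each agent in this fit. Its residual therefore reflects how far the drug difference disagreed between the lobes, and its SEs and p-values do not measure variation between rats. miR-26a was outside this fit because its ventral saline value was missing. Over both lobes miR-26b differed by -0.39 after OBP-801 (SE 0.095) on the log2 scale, with an unadjusted p of 0.018 and a Benjamini-Hochberg adjusted p of 0.22 by limma. The corresponding values were -0.28 (SE 0.13) with an adjusted p of 0.32 for miR-101a and -0.14 (SE 0.096) with an adjusted p of 0.48 for miR-101b. After quantile normalization each was lower in 2 of 2 lobes. Without normalization this held for miR-26b alone, since the lateral differences were 0.06 for miR-101a and 0.13 for miR-101b. The share of the 242 probes that were lower in both lobes was not counted, so the count has no comparison. None of the 3 members passed an adjusted p of 0.05. Of all 242 probes 0% passed it in this limma fit, while 16.5%, or 40 probes, had an unadjusted p under 0.05, with miR-26b the only one of the 3 members among them. Over the 12 alternatives 0 to 33 probes passed the adjusted threshold, without any of these 3. The adjusted p of miR-26b ran from 0.091 to 0.80 over the 12 alternatives, that of miR-101a from 0.060 to 0.78 and that of miR-101b from 0.34 to 0.93.

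**Figure D3:**
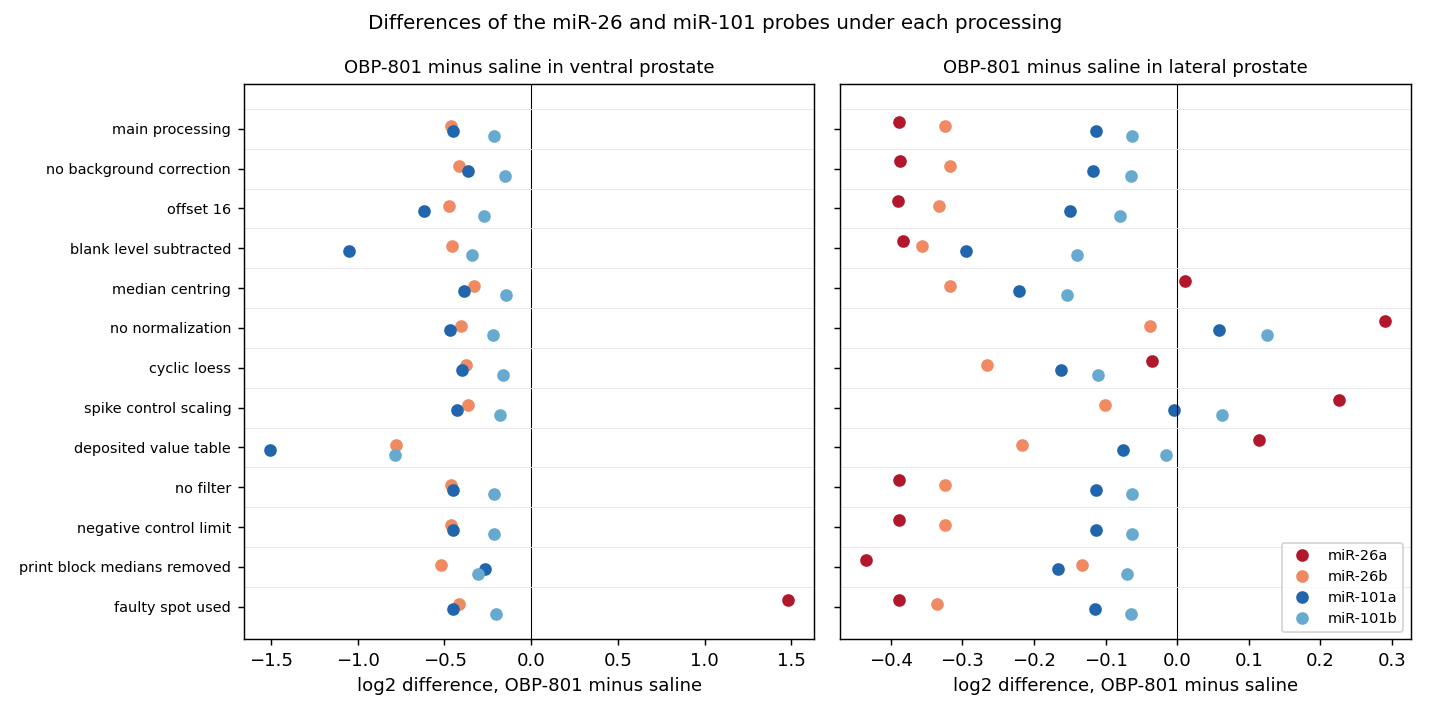
Log2 difference of OBP-801 minus saline for each of the 4 miRNAs under the main processing and 12 alternatives, with ventral prostate on the left and lateral prostate on the right, on separate scales. In ventral prostate miR-26b, miR-101a and miR-101b lie below 0 in every row and miR-26a has a value, 1.48, only where the faulty spot is used; in lateral prostate miR-26a lies on both sides of 0.

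Lateral prostate was then set against ventral prostate under each agent. Each of these comparisons shares its arrays with the drug comparisons, so they are not independent of them. Under saline the differences of lateral minus ventral were -0.14 for miR-26b, -0.05 for miR-101a and -0.01 for miR-101b, all within the spread of 0.25 over 255 probes, while miR-26b was at 0.28 without normalization. None of the 3 was 1.2-fold higher or lower, against 12.5% and 19.2% of all probes. Under OBP-801 they were 0.00 for both miR-26a and miR-26b, 0.29 for miR-101a and 0.14 for miR-101b, with a spread of 0.21 over 271 probes. Only miR-101a passed 1.2-fold higher, against 12.9% of all probes, and none was 1.2-fold lower, against 11.4%. That call of miR-101a was lost with no background correction (0.22), cyclic loess (0.25), median centring (0.14) and print block medians removed (0.089). Without normalization all 4 were higher in lateral than in ventral OBP-801, by 0.75 for miR-26a, 0.65 for miR-26b, 0.51 for miR-101a and 0.37 for miR-101b, around a median of 0.28 over all probes. The lobe term of the additive limma fit was -0.07 (SE 0.095, adjusted p = 0.68) for miR-26b, 0.12 (SE 0.13, adjusted p = 0.63) for miR-101a and 0.06 (SE 0.096, adjusted p = 0.72) for miR-101b, and 0% of the 242 probes passed an adjusted p of 0.05. With an unadjusted p under 0.05 there were 40, or 16.5%. Over the alternatives 0 to 59 probes passed the adjusted threshold for the lobe, and miR-26b was among them with scaling on spike controls, at 0.53 (adjusted p = 0.017 by limma).

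The other arms of the same precursors were measured too. miR-26b*, taken as the 3p arm, was detected on all 4 arrays, while the probes for miR-26a*, miR-101a* and miR-101b* were below the limit on all of them, with signals between 86.1 and 124. The Mir26b hairpin on chr9:83425709-83425793, plus strand, is shown because both of its arms gave signal, and these are in capitals, the 5p arm first.
Mir26b: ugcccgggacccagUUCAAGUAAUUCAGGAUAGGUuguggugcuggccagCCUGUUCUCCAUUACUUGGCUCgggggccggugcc
The signal of miR-26b* was 158 in ventral OBP-801 and 183 in ventral saline, and 185 in lateral OBP-801 and 150 in lateral saline. Its normalized log2 difference of OBP-801 minus saline was -0.23 in ventral and 0.15 in lateral prostate, so that the arms had the same sign in ventral prostate and opposite signs in lateral prostate. In the additive limma fit miR-26b* differed by -0.04 (SE 0.13, adjusted p = 0.88) between OBP-801 and saline. Lateral minus ventral it was -0.45 under saline and -0.07 under OBP-801.

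The probes with the most similar profiles were found by the root mean square distance between log2 profiles, each centred on its own mean. For miR-26b over 4 arrays these were miR-20a at 0.038, miR-186 at 0.064 and miR-92a at 0.070, where the median distance of 240 probes was 0.24. For miR-101a they were miR-200c at 0.039, miR-96 at 0.049 and miR-30e at 0.054, with a median of 0.22. For miR-101b they were miR-330 at 0.013, miR-339-3p at 0.022 and let-7i at 0.029, with a median of 0.16. For miR-26a over its 3 arrays they were miR-872 at 0.0014, miR-24-1* at 0.018 and miR-26b at 0.030, with a median of 0.21. The likeness of miR-26a and miR-26b depended on quantile normalization, which left each of them with equal values on the 2 OBP-801 arrays. Without normalization their distance was 0.14 and miR-26b was number 39 in order of closeness of 252 probes, and with cyclic loess it was number 146. Without normalization 0 of the nearest 3 of miR-26a, 0 of those of miR-26b, 1 of those of miR-101a and 1 of those of miR-101b stayed among the nearest 3. On 3 or 4 arrays close profiles are common.

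Other miRNAs reported to repress EZH2 in various tissues were listed for comparison. This list held 15 probes, 11 of them detected on both ventral arrays and 12 on both lateral arrays. After OBP-801, 2 of those in ventral prostate passed 1.2-fold higher and 3 passed 1.2-fold lower, where 13.1% and 18.1% of all probes were. The highest was let-7c, whose family is known for promoting differentiation, at 1.27, and it was at least 1.2-fold higher under all 12 alternatives. Its signal was 8922 in ventral OBP-801 but 3068 in ventral saline, beside 12202 in lateral OBP-801 and 10588 in lateral saline. The ventral difference thus rests on 1 low spot, which was not marked as faulty and which all 12 alternatives use. How far that spot can be relied on was not tested. The lowest of the list was miR-30d, of the miR-30 family, at -0.47, but this rested on quantile normalization. The signal of miR-30d was 3011 in ventral OBP-801 and 3117 in ventral saline, and without normalization it differed by -0.05, where the median of all probes was -0.07. With median centring 2 of the list were higher and 1 was lower, where 15% and 14.6% of all probes were. The lower one was miR-25, which was at least 1.2-fold lower under all 12 alternatives. In lateral prostate 2 were higher and 3 lower, where 12.9% and 15.1% of all probes were. The highest there were let-7a at 0.64 and miR-214, a miRNA of fibroblasts, at 0.60, and the lowest was let-7f at -0.69. These 3 passed 1.2-fold in the same direction under all 12 alternatives. let-7c had -0.44 in that lobe, but its signal was 12202 in lateral OBP-801 and 10588 in lateral saline. Without normalization it was 0.21 higher, beside a median of 0.19, so no direction is given for it there. The let-7 members differ by few bases, as the miR-26 members do, and let-7a and let-7f went opposite ways in lateral prostate. miR-25 and the lateral value of let-7c were chosen after their values were seen. The list's median was -0.14 in ventral and -0.12 in lateral prostate, beside -0.02 and 0.00 over all probes. Relative to all probes, the ventral median was below 0 under 7 of 12 alternatives and the lateral one under 12 of 12.

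A second list held 6 miRNAs reported to be silenced by EZH2, of which 5 were detected on both arrays of each lobe. In ventral prostate 1 passed 1.2-fold higher, the epithelial miR-200b at 0.27, where 13.1% of all probes did. Another 1 passed 1.2-fold lower, miR-200c at -0.47, where 18.1% of all probes did. Both calls rested on quantile normalization. The signal of miR-200b was 16479 in ventral OBP-801 and 17969 in ventral saline, and that of miR-200c was 3338 in ventral OBP-801 and 3593 in ventral saline. Without normalization they differed by -0.12 and -0.11, beside a median of -0.07 over all probes. With median centring 0 of the 5 passed in either direction, where 15% of all probes were higher and 14.6% lower. In lateral prostate 0 were higher and 2 were lower, where 12.9% and 15.1% of all probes were. The lower ones were miR-181a at -0.43 and miR-203 at -0.28, and both were below 0 under all 12 alternatives. The normalized 0.00 of miR-200b there reflects an equal rank on both arrays, while its signal was 38562 in lateral OBP-801 and 24427 in lateral saline. Without normalization miR-200b was 0.66 higher, or 0.47 above the median of all probes. With median centring 1 of the 5 was higher and 3 were lower, where 11.4% and 24.4% of all probes were. The medians were -0.09 and -0.26, beside -0.02 and 0.00 over all probes. miR-31 was in the list but was not detected on both arrays of either lobe.

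**Figure D4:**
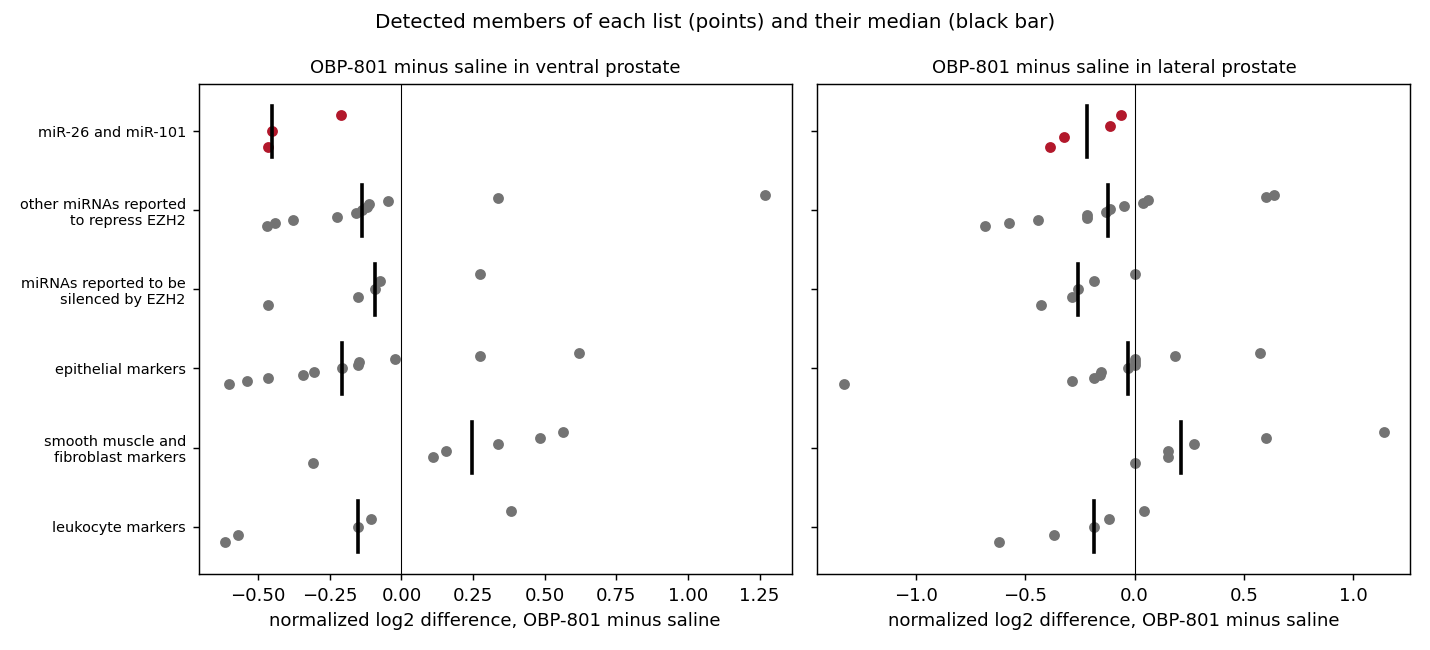
Normalized log2 difference of OBP-801 minus saline for the detected members of each list (points) and their median (black bar), in ventral prostate on the left and lateral prostate on the right, on separate scales. The medians of miR-26 and miR-101 are -0.45 and -0.22, those of smooth muscle and fibroblast markers 0.25 and 0.21.

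Because whole lobes were extracted, fewer cells of a type and less RNA per cell cannot be told apart. Marker miRNAs of cell types moved beside the values above. The 11 epithelial markers had a median of -0.21 in ventral and -0.03 in lateral prostate. At least 1.2-fold lower were 5 and 2 of them, against 18.1% and 15.1% of all probes. With median centring 3 were lower in each lobe, against 14.6% and 24.4%. At least 1.2-fold higher were 2 in ventral and 1 in lateral prostate, against 13.1% and 12.9%. Of these, miR-205 had 0.62 and 0.58 and stayed at least 1.2-fold higher under 11 and 12 of the 12 alternatives. In ventral prostate miR-141 was lowest at -0.60, followed by miR-200a at -0.54, and miR-96 had -0.34. In lateral prostate miR-182 was lowest at -1.33, with a signal of 260 in lateral OBP-801 and 479 in lateral saline. Each of these lower values stayed at least 1.2-fold lower under all 12 alternatives. The summed signal of the 11 markers, not normalized, was 37051 in ventral OBP-801 and 44781 in ventral saline. It was 77845 in lateral OBP-801, the array that was brighter as a whole, and 60468 in lateral saline. The 6 smooth muscle and fibroblast markers had a median of 0.25 in ventral and 0.21 in lateral prostate, with 3 at least 1.2-fold higher in each lobe, 1 lower in ventral and 0 lower in lateral prostate. The lower one was the smooth muscle miR-145 at -0.31, which turned to 0.13 without normalization, with a signal of 3148 in ventral OBP-801 and 2888 in ventral saline. The summed signal of these 6 markers, also not normalized, was 8605 in ventral OBP-801 and 7374 in ventral saline. It was 18366 in lateral OBP-801 and 10310 in lateral saline, of which miR-145 alone gave 8084 and 2821. Of the 6 leukocyte markers, 5 were on the array and all 5 were detected, with medians of -0.15 and -0.18. Their summed signal was 1503 in ventral OBP-801 and 1791 in ventral saline, and 1219 in lateral OBP-801 and 1236 in lateral saline. The 2 endothelial markers had a median of 0.29 in ventral and 0.24 in lateral prostate, with miR-126 at 0.47 and 0.42 and at least 1.2-fold higher under 10 and 11 of the 12 alternatives. Their summed signal was 1537 in ventral OBP-801 and 1174 in ventral saline, and 2456 in lateral OBP-801 and 1544 in lateral saline. Of the erythroid markers miR-451 alone was detected, at -0.04 in ventral and 0.56 in lateral prostate, and the lateral value was at least 1.2-fold higher under all 12 alternatives. The part of these shifts in the differences of miR-26 and miR-101 was not tested.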

How the data were processed

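Total RNA of ventral and lateral prostate was labelled with Hy5 and hybridized to 1-colour arrays, per the labels' protocols. The deposited scanner files give, per the file headers, the median intensity of each spot and of its local background at 635 nm, neither corrected nor normalized. Neither the maker of the array nor the software of the scanner is stated in the labels or headers. The deposited value table holds intensity values processed by the authors in steps not stated. Its columns all have a median of 25, so it is scaled within each array.

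Background was removed by normexp (limma 3.58.1, R 4.3.3; offset 50), control spots were left out, and log2 values were quantile-normalized. Differences of 2 arrays have no test, and their number limits the precision. The additive fit used lmFit and eBayes with Benjamini-Hochberg adjustment. Named were all 4 miRNAs, the other arms of their precursors, the 3 nearest profiles of each, and the extremes of both EZH2 lists. Only some cell type markers were named, and these are not always the extremes of their lists. The 12 alternatives changed background, normalization, filter, print position or the faulty spot. The miRNAs and lists were chosen with earlier results of these data known.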

Additional observations from a re-analysis of the deposited data

Results flagged for a closer look

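The miR-26a spot of the ventral saline array was left out of every comparison because it was marked as faulty, yet it held a recorded signal of 2479, which is 20.0 times the detection limit of that array. Used at that value, miR-26a would differ by 1.48 between ventral OBP-801 and ventral saline and by 1.87 between lateral saline and ventral saline, on the log2 scale.

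Lateral minus ventral prostate, miR-101a had 0.285 under OBP-801 and -0.05 under saline, and miR-101b had 0.137 under OBP-801 and -0.01 under saline. The opposite signs drew attention to them. Under OBP-801 miR-101a ran from 0.089 with print block medians removed to 1.32 in the deposited value table, and miR-101b from 0.0004 with median centring to 0.73 in that table. Under saline the sign itself varied, from -0.11 to 0.11 for miR-101a and from -0.14 to 0.14 for miR-101b over the 12 alternatives. With 1 array per group the difference was not tested, and both saline values lay within the spread of all probes.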

How the results depend on the processing

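The ventral differences of miR-26b, miR-101a and miR-101b kept their sign under all 12 alternatives, from -0.78 to -0.33, from -1.51 to -0.27 and from -0.79 to -0.14; the 2 changes of filter leave single differences as they are by construction. The deposited value table, in which all probes had a ventral median of -0.47, gave -0.78 for miR-26b, -1.51 for miR-101a, -0.79 for miR-101b and -0.79 for their median. Subtraction of the blank level gave -1.05 for miR-101a. In lateral prostate miR-26a had -0.39 in the main processing but 0.011 with median centring, 0.29 without normalization, 0.23 with spike control scaling, 0.11 in the deposited table and -0.035 with cyclic loess. Without normalization miR-26b had -0.038 there and the median of the 4 miRNAs was 0.092, and with spike control scaling that median was 0.029. The median of lateral minus ventral under OBP-801, 0.07 in the main processing, was 0.58 without normalization, 0.59 with spike control scaling and 0.75 in the deposited table. Median centring, spike control scaling and no normalization differ from each other by a constant per array only.

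In the additive limma fit, the probes passing an adjusted p of 0.05 for the drug numbered 0 in the main processing, 9 with no background correction, 17 with an offset of 16, 15 with the blank level subtracted, 4 without normalization, 33 with cyclic loess and 18 with spike control scaling. For the lobe they numbered 0 in the main processing and, in the same order, 20, 25, 25, 28, 31 and 59, with 19 under median centring, 1 in the deposited table, 2 with no filter and 3 with print block medians removed. None of the 3 miRNAs in the fit was among the drug calls under any of these. With spike control scaling the lobe term of miR-26b was 0.53 (adjusted p = 0.017), against -0.07 in the main processing. The cause was not tested. Differences of the miR-101 probes are limited by signals at most 1.64 times the detection limit. No replicate could be left out because each group had 1 array, and the additive fit, which sets the agents against each other within each lobe, was the paired fit that the layout allowed.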
